A study of Mus musculus with 3 samples.

Results

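RBFOX2 contacts were mapped in the primary transcripts of 9 genes that encode other regulators of alternative splicing: Mbnl1, Mbnl2, Celf1, Celf2, Qk, Esrp2, Tra2a, Tra2b and Khdrbs1. A cluster of crosslink positions was assigned to one of these genes where its midpoint lay inside the gene's annotated span, on the gene's strand (GENCODE M21, GRCm38). By this rule 188 of the 87021 deposited clusters belonged to the 9 genes, with a summed count of 4940 of 2850863. RBFOX2 was immunoprecipitated with an antibody from UV-crosslinked (150 mJ per cm2) primary hepatocytes, the parenchymal cells of the liver, which had been isolated from C57BL6/J mice on a control diet and plated overnight. The labels name no transgene or deletion. The 3 eiCLIP libraries formed 1 group. In eiCLIP, a form of iCLIP, the reverse transcriptase halts where protein was crosslinked to the RNA, and the position where a cDNA begins therefore marks a contact.

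The list holds 1 count for each cluster, pooled by the authors over the 3 libraries. No spread between libraries could therefore be given, no test between groups was possible, and the intervals below are 95% intervals of counting error only (exact Poisson for counts and densities, Wilson for shares). The lowest count in the list was 10, so a gene without a cluster is one for which no cluster of at least 10 was listed. A count depends on how much of a transcript the cells held as well as on how much of it was crosslinked. Fewer cells of a type and less RNA per cell cannot be told apart in such data, and no size-matched input was used here. The hepatocyte label was checked against marker genes. All 10 hepatocyte markers held clusters, with a summed count of 13455, whereas 2 of 6 endothelial markers summed to 24, 2 of 5 Kupffer cell markers to 39, and 1 of 5 stellate cell markers (Reln) to 150. Alb (8110) and Apob (2337) carried most of the hepatocyte sum, and the median per hepatocyte marker was 215. Pck1 and Cyp2e1 held 1 cluster each, with counts of 17 and 11. None of the 5 cholangiocyte markers held a cluster. The part of other cell types in the values below was not tested.

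Splicing regulators bind short sequence motifs in pre-mRNA, and where they bind relative to an exon commonly decides whether the exon is included or skipped. RBFOX proteins recognise (U)GCAUG. Bound downstream of an alternative exon they usually promote its inclusion, and bound upstream or inside it they usually promote skipping. Many splicing regulators also carry alternative exons in their own transcripts. Some of these exons change the localisation or activity of the protein, and others, called poison exons, introduce a premature stop codon that directs the transcript to nonsense-mediated decay (NMD). In this way one regulator can set the amount or form of another.

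All 9 genes held at least 1 cluster, against 41.8% of all annotated coding genes and 50.7% of coding genes within the same range of gene length (6.66 to 969.9 kb). These genes were chosen with earlier results of these data known. With a minimum count of 17, 8 of the 9 held a cluster, and with a minimum of 39, 6 did. Clusters were concentrated in the muscleblind-like genes: Mbnl1 and Mbnl2 together held 125 of the 188 clusters (66.5%) and 73.8% of the summed count. Mbnl1 held 82 clusters with a summed count of 2698 (2597 to 2802), which placed it at rank 104 of the 10738 genes with clusters. Mbnl2 followed with 43 clusters and a summed count of 950 (890.5 to 1012) at rank 365, and Qk with 30 clusters and 636 (587.5 to 687.4) at rank 596. The remaining genes held between 2 and 9 clusters each, and their summed counts ran from 21 in Celf1 to 184 in Tra2b.

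Per length of gene the order was different. Esrp2, the shortest of the genes, stood highest with 0.901 clusters per kb (0.331 to 1.96), followed by Mbnl1 with 0.523 (0.416 to 0.649), Tra2b with 0.419 (0.192 to 0.796), Mbnl2 with 0.276 (0.199 to 0.371) and Qk with 0.256 (0.173 to 0.365). Khdrbs1 had 0.179 clusters per kb (0.0719 to 0.368), Tra2a 0.0995 (0.0120 to 0.359), Celf1 0.0253 (0.00306 to 0.0913) and Celf2, which spans 969.9 kb, 0.00722 (0.00290 to 0.0149). The interval of every gene overlapped that of its neighbour in this order, so neighbours were not told apart. The distance between the ends of the order was larger than counting error, and the intervals of Mbnl1 and Celf2 lay far apart.

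**Figure D1:**
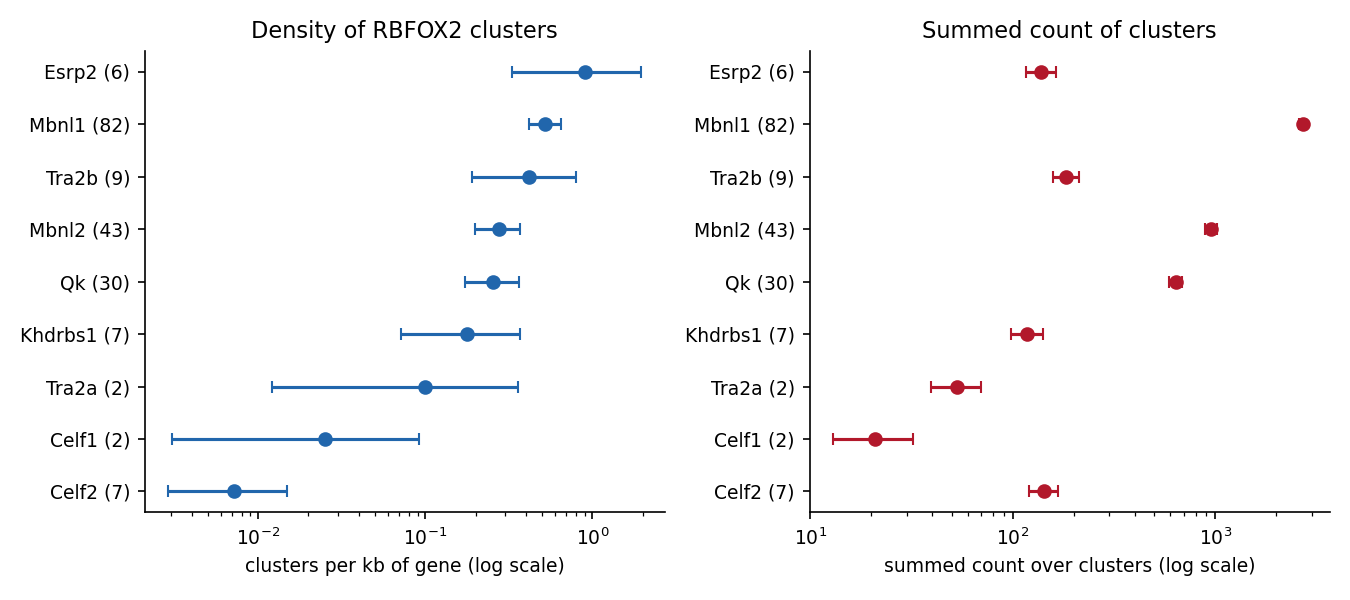
Clusters per kb of gene (left) and summed count over clusters (right) for the 9 genes, both on log scales, with the number of clusters in parentheses. Points are the pooled values and bars exact 95% Poisson intervals. Esrp2 had the highest density, 0.901 clusters per kb, whereas Mbnl1 had by far the highest summed count, 2698.

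Of the 188 clusters, 134 were intronic (71.3%, 64.4 to 77.3%), close to the 69.4% of all clusters in coding genes. The 3′ UTR held 37 clusters (19.7%, 14.6 to 25.9%), against 13.8% over coding genes, and coding sequence held 12 (6.38%, 3.69 to 10.8%), against 14.6%. The 37 include 2 clusters in the poison exon of Tra2b, since sequence after the premature stop of NMD transcripts was annotated as 3′ UTR. The 5′ UTR held 4 clusters and a non-coding exon 1. The median count of the 188 clusters was 18, and 26 (13.8%, 9.62 to 19.5%) had a count of at least 39, the level reached by 10.2% of all clusters. Of these 26 high clusters, 16 were in Mbnl1 and 6 in Mbnl2.

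**Figure D2:**
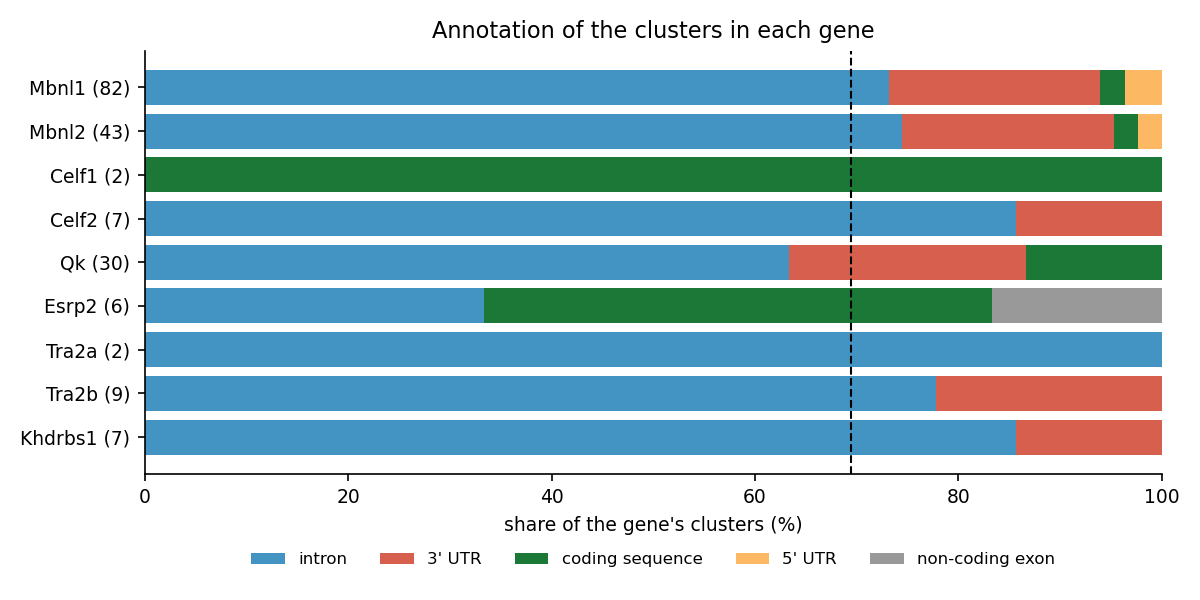
Share of each gene's clusters in introns, 3′ UTR, coding sequence, 5′ UTR and non-coding exons (x axis, percent), with the number of clusters in parentheses. The dashed line marks the intronic share over all coding genes, 69.4%. Celf1 had only coding clusters, and Esrp2 was the other gene with more exonic than intronic clusters.

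The muscleblind-like proteins MBNL1 and MBNL2 are zinc-finger proteins that control a postnatal switch in splicing and are sequestered by expanded CUG repeats in myotonic dystrophy. Both genes contain a 54-nt cassette exon, known to affect nuclear localisation of the protein, and a 36-nt cassette exon further downstream. A cassette exon is one that some annotated transcripts include and others skip. The 54-nt exons of the 2 genes shared 46 of 54 bases (85.2%) and the 36-nt exons 31 of 36 (86.1%). The 36-nt exon is shown because it held the RBFOX motif in both genes, and the last 30 bases of each are given with the motif in capitals (GCATG, the DNA form of GCAUG, as in all sequences below, which run 5′ to 3′ on the transcribed strand and come from the GENCODE M21 transcripts on GRCm38).
Mbnl1 36-nt exon (chr3:60621423-60621458, + strand): tattgtGCATGacacccgctacaagtgttg
Mbnl2 36-nt exon (chr14:120403336-120403371, + strand): ttttgtGCATGacacccgctaccagtattg

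The highest cluster of Mbnl1 lay nearest to this exon. It had a count of 278, above 99.5% of all clusters, and was 20 nt wide (chr3:60621647-60621666). Its nearest edge lay 189 nt downstream of the 36-nt exon, in the intron, and distances of single clusters are given from the nearest edge throughout. A further cluster with a count of 56 covered the 3′ splice site and the motif inside the exon (chr3:60621420-60621442). In the upstream intron a cluster with a count of 52 ended 53 nt before the exon. The cluster with a count of 91 lay 455 nt downstream of the 36-nt exon and 211 nt upstream of the next cassette exon, which is 95 nt long. Between it and the 95-nt exon lay a cluster with a count of 60, and beyond that exon followed clusters with counts of 38 and 13. The cluster with a count of 278 lay 480 nt upstream of the 95-nt exon. Contacts thus surrounded both exons on each side, and the highest count fell between them. The intron sequence under the cluster with a count of 278 was not analysed here.

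At the 36-nt exon of Mbnl2 the highest cluster of the gene, with a count of 64, overlapped the last bases of the exon and its 5′ splice site (chr14:120403355-120403423). It began 3 nt after the GCATG in the exon. Within 500 nt of the exon there were otherwise a cluster with a count of 16 on the upstream side, 198 nt away, and one with a count of 12 on the downstream side, 327 nt away. No cluster was listed in Mbnl2 at the distance where Mbnl1 had its highest count. The 95-nt exon that follows is annotated as constitutive in Mbnl2 and as cassette in Mbnl1.

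Clusters at the 54-nt exon lay on both sides in both genes, and none lay inside the exon. In Mbnl1 (chr3:60614683-60614736) a cluster with a count of 30 ended 176 nt upstream, and clusters with counts of 15, 13, 23 and 52 began 56, 160, 355 and 442 nt downstream. In Mbnl2 (chr14:120395712-120395765) the upstream clusters had counts of 43, 10 and 12 at 167, 146 and 49 nt, and the downstream clusters had counts of 41, 12 and 17 at 126, 353 and 402 nt. The highest upstream cluster thus sat at nearly the same distance from the exon in both paralogs. The intron that follows the 54-nt exon was densely covered, with 7 clusters in 0.883 kb in Mbnl1 (7.93 per kb, 3.19 to 16.3) and 4 in 0.685 kb in Mbnl2 (5.84 per kb, 1.59 to 15.0). In that intron the Mbnl1 cluster with a count of 52 and the Mbnl2 clusters with counts of 12 and 17 were nearer to the next exon. They lay 406, 330 and 274 nt upstream of it. In Mbnl1 the next exon is annotated as 154 or 49 nt long, with alternative 3′ splice sites, and the distance is to the longer form.

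**Figure D3:**
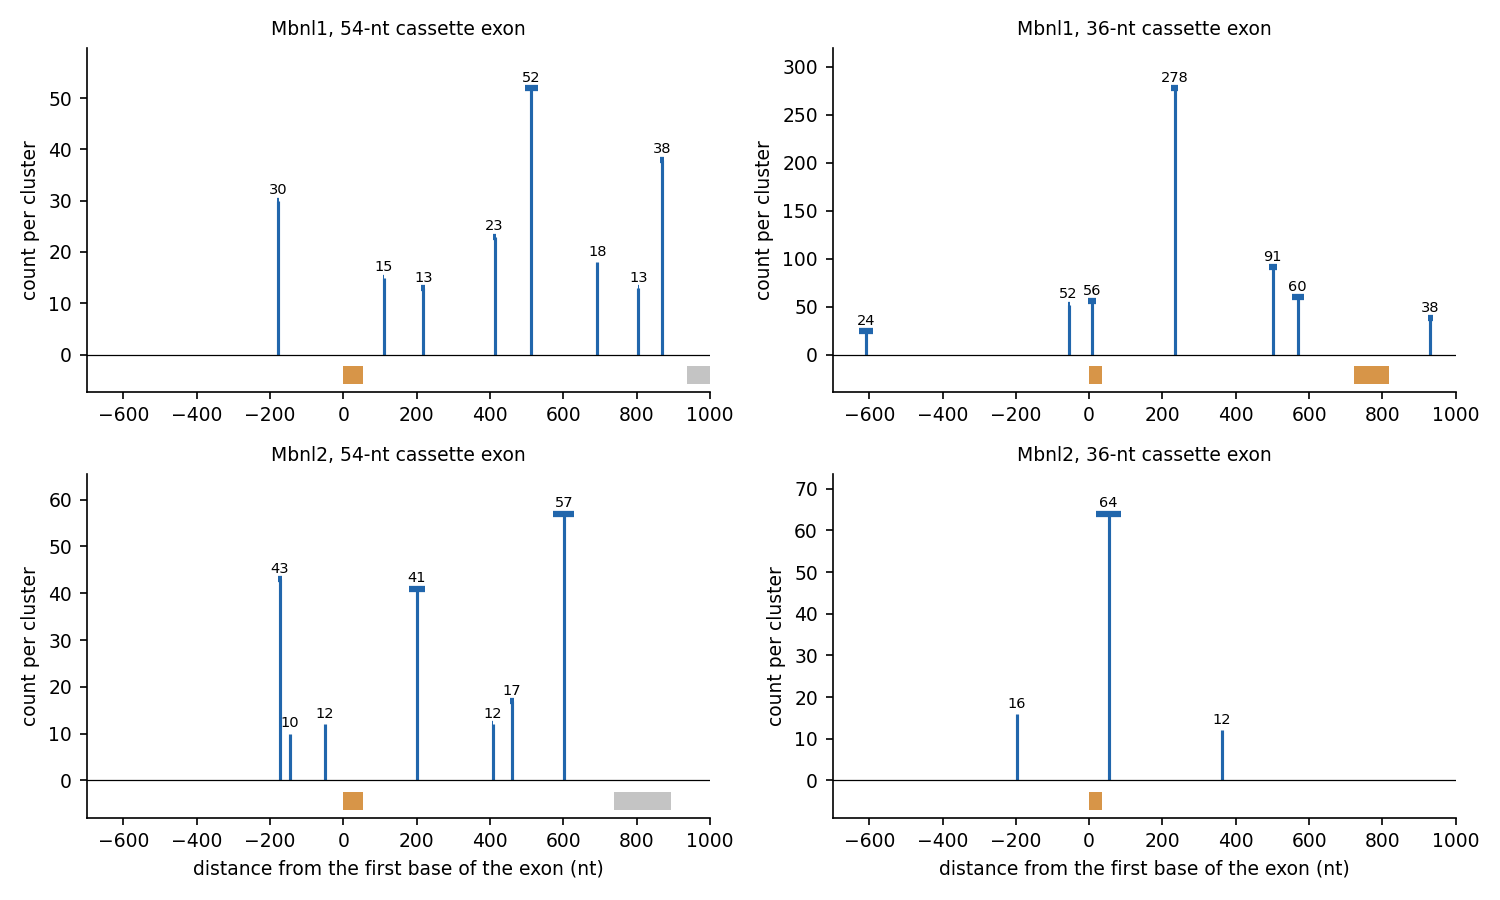
Count per cluster (y axis, linear) against distance from the first base of the 54-nt exon (left) and the 36-nt exon (right) in Mbnl1 (top) and Mbnl2 (bottom). Vertical lines stand at cluster midpoints, horizontal caps span the cluster, orange boxes are cassette exons and grey boxes other annotated exon sequence. The count of 278 downstream of the Mbnl1 36-nt exon had no counterpart of similar size in Mbnl2, where the count of 64 sat at the exon end.

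Of the other cassette exons of Mbnl1, the 1049-nt exon in the 5′ UTR held 3 clusters with a summed count of 117, and a cluster with a count of 17 lay just downstream of it. The 111-nt exon had a cluster with a count of 13 on its upstream side, and the 201-nt exon held a coding cluster with a count of 24. No cluster lay inside or within 500 nt of the 114-nt exon.

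The 3′ UTR of Mbnl1 formed the other main region of contact, with 17 clusters and a summed count of 837 within the 3371-nt last exon (chr3:60626380-60629750). Its highest clusters had counts of 253 (chr3:60627530-60627598) and 99 (chr3:60629159-60629171), and of the 82 clusters of the gene only the intronic one with a count of 278 was higher than both. Of 16 windows in the 3′ UTR with sequence, 7 held GCATG (43.8%, 23.1 to 66.8%). A window is a cluster with 50 nt added on each side, and only windows that annotated exons covered in full could be read. In both of the highest 3′ UTR clusters the motif ended just upstream of the cluster, 7 and 2 nt before its first base, and these sites are shown with 12 bases on each side.
Mbnl1 3′ UTR, count 253 (chr3:60627507-60627535, + strand): ctgtcatcagatGCATGataaaccaaaat
Mbnl1 3′ UTR, count 99 (chr3:60629141-60629169, + strand): ttcaaaactactGCATGtttaaaacttca

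In Mbnl2 the 3′ UTR held 9 clusters with a summed count of 200. The highest of them had a count of 52 (chr14:120429018-120429100), one of the 3 highest in the gene, and contained the only GCATG among the 8 windows of this 3′ UTR with sequence. The remaining one of these, with a count of 57 (chr14:120396285-120396342), was intronic and lay 520 nt downstream of the 54-nt exon, upstream of the 154-nt constitutive exon.
Mbnl2 3′ UTR, count 52 (chr14:120429042-120429070, + strand): ttgccacaaactGCATGctaaatttagtt

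The CELF proteins bind GU-rich RNA and oppose MBNL proteins at many exons. Contacts in both genes were sparse. Celf2 held 7 clusters with a summed count of 142 (119.6 to 167.4). Its highest cluster had a count of 37 and spanned the 5′ splice site of a 197-nt exon (chr2:6721417-6721613, minus strand), reaching from the last bases of the exon into the downstream intron. This exon is used by most annotated Celf2 transcripts, and 1 of the 14 transcripts spanning it skips it. The next clusters had counts of 28, in an intron at a position that the annotated gene Gm26315 on the same strand also covers, and 21, in the 3′ UTR. The remaining 4 clusters had counts of 11 to 18, and 3 of the intronic clusters were more than 5 kb from an exon. No cluster lay within 500 nt of the other cassette exons of Celf2, 144 and 41 nt long. Celf1 held 2 clusters, with counts of 11 and 10, both in coding exons, of 49 and 162 nt. Its 2 annotated cassette exons, of 53 and 152 nt, had no cluster within 500 nt.

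QK, a KH-domain protein of the STAR family, binds ACUAA elements and controls splicing, RNA stability and circular RNA formation. Its gene encodes isoforms that differ in their last exons and thus in their C-terminus and cell compartment. The 3 highest Qk clusters, with counts of 78, 37 and 33, all lay in alternative last exons. The counts of 78 (chr17:10214270-10214281, minus strand) and 37 fell into the last exon of the transcript Qk-201, and the count of 33 into that of Qk-204. The count of 37 also fell inside an 836-nt exon that is internal in the transcript Qk-202. In all, 7 clusters with a summed count of 214 lay in 3′ UTRs. GCATG was present in 1 of the 7 Qk windows with sequence, that of a cluster with a count of 21 and not that of the highest cluster.
Qk 3′ UTR, count 21 (chr17:10208373-10208401, minus strand): aataaagttactGCATGttcctcagtcgc

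The single cassette exon of Qk, 117 nt long (chr17:10273947-10274063), was covered over 106 nt by a cluster with a count of 28, and no intronic cluster lay within 500 nt of it. Qk had no intronic cluster within 500 nt of any exon. Of its 19 intronic clusters, 15 (78.9%, 56.7 to 91.5%) were more than 5 kb from the nearest exon, against 29.0% of intronic clusters in all coding genes. More of the intron of Qk was that far from an exon, 59.9% of its length against 45.5% over coding genes. These 15 clusters were low, with counts of 11 to 31 and a median of 17. They fell in 3 long introns, of 35.8, 34.9 and 21.1 kb, which held 8, 5 and 6 intronic clusters.

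KHDRBS1, also known as SAM68, is another STAR-family protein and links signalling to splicing. Khdrbs1 held 7 clusters with a summed count of 118 (97.7 to 141.3), and no cassette exon is annotated in the gene. The highest cluster had a count of 26 and lay in the first intron, 1486 nt upstream of the 125-nt exon. A cluster with a count of 20 lay in a 3′ UTR. The next highest count, 17, was shared by a pair of clusters, one 124 nt downstream of the 81-nt exon and the other 1213 nt downstream of the 147-nt exon. Counts in this gene were level, with no cluster reaching 39.

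ESRP2 maintains the epithelial splicing programme and is a regulator of postnatal splicing in hepatocytes. Esrp2 held 6 clusters with a summed count of 138 (115.9 to 163.0) over 6.66 kb. The highest, with a count of 43, filled 90 nt of a coding exon that is 108 or 111 nt long depending on the transcript (chr8:106133787-106133876, minus strand). The next had counts of 26, in the intron 19 nt upstream of a 99-nt exon, and 23, with its midpoint in a non-coding exon of the transcript Esrp2-206. The cluster with a count of 23 also covered the 3′ splice site and first bases of the 213-nt constitutive exon. The other 3 clusters had counts of 12, 15 and 19. No cassette exon is annotated in this gene, and the 1 window with sequence had no GCATG.

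TRA2A and TRA2B are SR-like proteins that bind purine-rich enhancers in exons. Both genes contain a poison exon, and TRA2B is known to promote inclusion of the poison exon of its own transcript. The highest clusters of both genes lay at these exons. In Tra2b the exon is annotated with 2 alternative 5′ splice sites and is 276 or 397 nt long (chr16:22258986-22259261 and chr16:22258865-22259261, minus strand). No protein-coding transcript includes either form. The highest cluster of the gene had a count of 47 (chr16:22258908-22258919). It fell inside the longer form and 67 nt downstream of the end of the shorter one. The next cluster had a count of 31 (chr16:22259096-22259118) and lay inside both forms. Together these 2 clusters made 78 of the summed count of 184. Both windows held GCATG, 16 and 27 nt away from the cluster on its upstream side, and both sites are shown because they fall inside a poison exon.
Tra2b poison exon, count 47 (chr16:22258923-22258951, minus strand): tttgctaaacatGCATGcattatttgttt
Tra2b poison exon, count 31 (chr16:22259133-22259161, minus strand): aaaagaaagaatGCATGctaattatcaga

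The remaining 7 Tra2b clusters were intronic with counts of 10 to 25. The highest of them had a count of 25 and lay 670 nt upstream of the 189-nt exon. The cluster with a count of 20 lay 474 nt downstream of the 397-nt form, in an intron that 1 transcript retains. In Tra2a 1 of 2 clusters, with a count of 40 of the gene's 53, straddled the 5′ splice site of the 306-nt poison exon (chr6:49252803-49253108, minus strand), over 185 nt (chr6:49252705-49252889). The other, with a count of 13, lay 127 nt downstream of a 116-nt constitutive exon. Its window could be read because a retained-intron transcript covers it, and it held GCATG inside the cluster.
Tra2a intron, count 13 (chr6:49246704-49246732, minus strand): aaatgtaataatGCATGtcagaatttgac

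**Figure D4:**
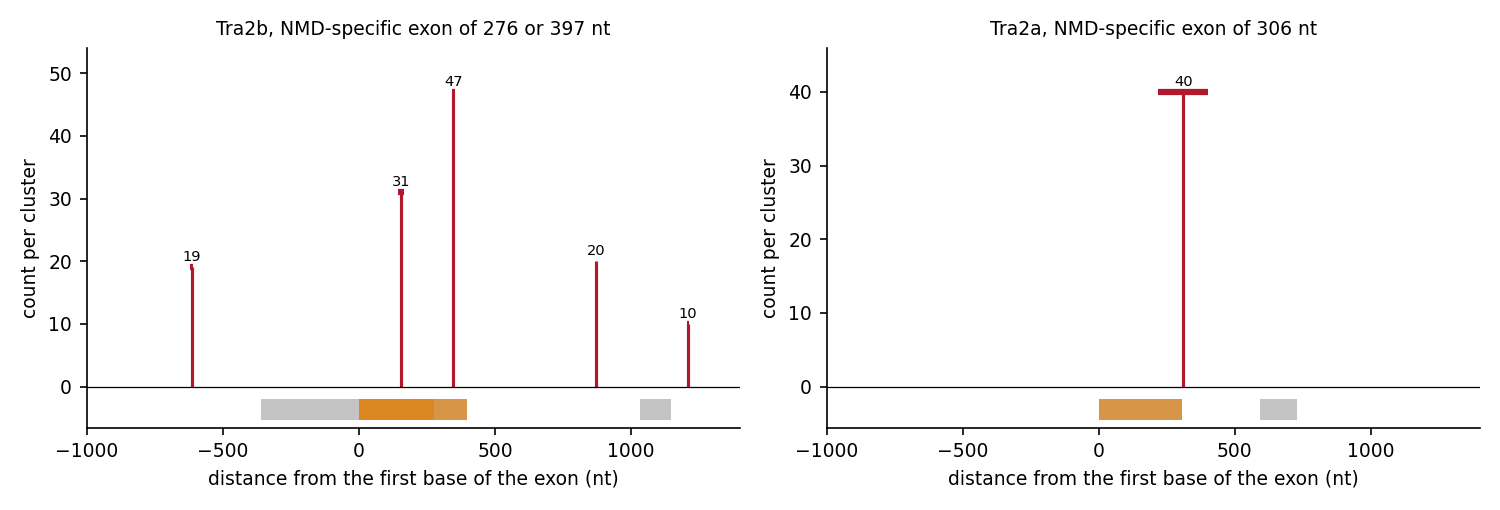
Count per cluster (y axis) against distance from the first base of the NMD-specific exon in Tra2b (left) and Tra2a (right). Orange boxes are the NMD-specific exons, darker where the 276-nt and 397-nt forms of Tra2b overlap, and grey boxes other annotated exon sequence, non-coding transcripts included. The counts of 31 and 47 fell inside the Tra2b exon and the count of 40 across the end of the Tra2a exon.

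Over all 9 genes, 18 internal exons were annotated as cassette, of which 4 are specific to NMD transcripts. Both numbers count the 276-nt and 397-nt forms of the Tra2b exon separately, and with these forms as 1 exon the shares below were 6 of 17 (35.3%) and 8 of 17 (47.1%). In the 300 nt of intron upstream, 6 of 18 had a cluster (33.3%, 16.3 to 56.3%), against 4.49% of cassette exons of all coding genes. In the 300 nt downstream it was 8 of 18 (44.4%, 24.6 to 66.3%), against 4.91%. All 6 upstream and 6 of the 8 downstream exons belonged to Mbnl1 and Mbnl2, and the other 2 were the 197-nt exon of Celf2 and the 306-nt exon of Tra2a. Exons of 1 gene are not independent, and neighbouring exons could share a cluster. Of the 62 constitutive exons of the same genes, 10 had a cluster on either side (16.1%, 9.0 to 27.2%), as did 9 of the 18 cassette exons (50%, 29.0 to 71.0%). Over all coding genes these shares were 5.27% and 8.22%. All shares over coding genes in this paragraph include exons of genes without a cluster. Only 41.8% of coding genes held a cluster, whereas all 9 genes did, and this part of the difference was not tested. Most constitutive exons of the 9 genes lay outside Mbnl1 and Mbnl2, whereas most of the cassette exons with a cluster lay in them. The parts of exon kind and of gene in the difference were not tested.

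Intronic clusters were also placed by distance of their midpoint from the nearest exon. Within 300 nt lay 40 of the 134 (29.9%, 22.8 to 38.1%), against 21.6% over coding genes. These stretches made up 4.08% of the intron length of the 9 genes and 10.6% over coding genes. The first value was set largely by the long introns of Celf2, without which it was 8.53%. The density there was 0.652 clusters per kb of intron (0.466 to 0.887), with 0.270 between 300 and 500 nt, 0.108 between 500 nt and 5 kb, and 0.0421 (0.0305 to 0.0568) beyond 5 kb. Celf2 decided the last of these, since it held 791.0 of the 1020 kb of such deep intron but 3 of the 43 clusters there. Without Celf2 the densities were 0.835 (0.594 to 1.14), 0.367, 0.162 (0.116 to 0.221) and 0.174 (0.125 to 0.237), so that the interval beyond 5 kb overlapped that between 500 nt and 5 kb. In Mbnl1 and Mbnl2 the density within 300 nt was 2.03 (1.20 to 3.21) and 1.67 (0.861 to 2.91), compared with 0.104 over all coding genes. The 2 genes were also denser between 500 nt and 5 kb, with 0.303 (0.177 to 0.486) and 0.154 (0.0766 to 0.275), compared with 0.0560. The values over all coding genes include genes without a cluster. Of the 40 clusters near exons, 23 lay upstream with a summed count of 657 and 17 downstream with a summed count of 674.

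Deep introns, more than 5 kb from an exon, held 43 of the 134 intronic clusters (32.1%, 24.8 to 40.4%), near the 29.0% of all coding genes. Of these, 20 were in Mbnl1, 15 in Qk, 5 in Mbnl2 and 3 in Celf2. Per kb of deep intron, Mbnl1 held 0.250 clusters (0.153 to 0.386), Qk 0.243 (0.136 to 0.401) and Mbnl2 0.0737 (0.0239 to 0.172). Celf2 held 0.00379, compared with 0.0335 over all coding genes. All 43 clusters were of modest size, with counts of 10 to 38 and a median of 17, and none reached 39. The deepest lay in Celf2, 27423 nt downstream of an exon with a count of 14. The count of 38 was one of 5 intronic Mbnl1 clusters that lay in a stretch also annotated as the gene Gm37589 on the same strand, so reads there could come from either gene. In Mbnl1 the 17.1-kb intron that contains this stretch held 13 clusters with a summed count of 341, and the 48.4-kb intron that follows held 13 with a summed count of 215.

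**Figure D5:**
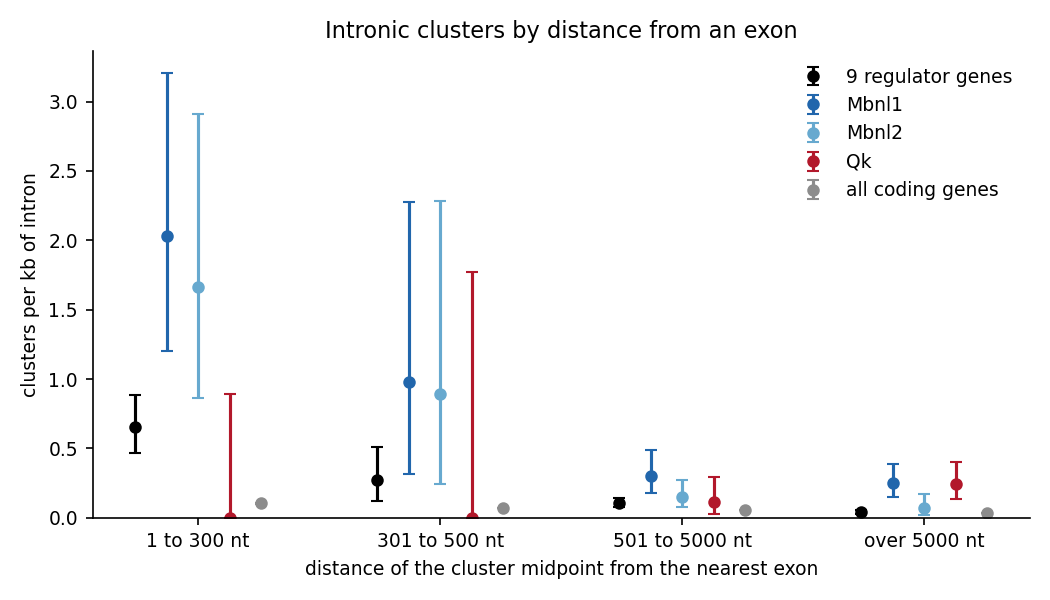
Clusters per kb of intron (y axis) by distance of the cluster midpoint from the nearest exon, for the 9 genes together, Mbnl1, Mbnl2, Qk and all coding genes, with exact 95% Poisson intervals. Densities were highest within 300 nt of exons in Mbnl1 (2.03) and Mbnl2 (1.67), whereas Qk had no intronic cluster within 500 nt and 0.243 per kb beyond 5 kb.

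Sequence could be read for 58 of the 188 windows. GCATG was searched on the transcribed strand only, and 17 windows held it (29.3%, 19.2 to 42.0%), against 20.1% of all cluster windows with sequence and 11.4% of windows of the same length tiled over the other readable sequence of the same genes. These 17 windows contained 14 separate sites, because 3 sites in Mbnl1 fell into the windows of neighbouring clusters. By gene, Mbnl1 had 11 of the 17, Mbnl2 and Tra2b 2 each, and Qk and Tra2a 1 each. Of the 12 readable windows with counts of at least 39, 6 held the motif (50%, 25.4 to 74.6%). Only 18 of the 134 intronic windows could be read, against 35 of the 37 in 3′ UTRs, so the shares describe mainly 3′ UTRs. The 2 Tra2b windows with the motif, in the poison exon, are counted among these 3′ UTR windows. A match is a string of letters in a window and was not tested as a binding site.

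Related regulators were counted as background, beside the 41.8% of all annotated coding genes that held a cluster. Among 8 paralogs of the 9 genes, only Khdrbs3 (3 clusters, summed count 57) and Mbnl3 (1 cluster, 43) had clusters, and Celf3 to Celf6, Esrp1 and Khdrbs2 had none. Of 34 other tissue splicing regulators 26 had clusters, led by Rbpms (summed count 7054), Rbpms2 (1742) and Rbfox2 itself (1609), and Nova2, Srrm3, Elavl2, Elavl3, Elavl4, Rbm24, Msi1 and Raver2 had none. Of 11 SR protein genes 8 had clusters, led by Srsf6 (2976), Srsf5 (815) and Srsf11 (616), and Srsf1, Srsf9 and Srsf12 had none. All 21 hnRNP genes, 3 of which are also among the tissue regulators, had clusters, with Hnrnph1 (1116), Hnrnpa2b1 (608) and, equal at 481, Hnrnpa1 and Syncrip at the top. The median number of clusters per kb was 0.256 in the 9 genes, 0.145 in the other tissue regulators, 0.636 in the SR proteins and 0.647 in the hnRNPs, compared with 0.122 over coding genes that held clusters. The medians of the tissue regulators and SR proteins include genes without a cluster. Over all coding genes, those without a cluster included, the median was 0.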

How the data were processed

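Per the labels and the study's methods (CASAVA 1.8.4, cutadapt, STAR 2.4.2a), the authors discarded reads under 18 nt after trimming, aligned the rest to GRCm38, kept unique mappers, removed PCR duplicates by barcode and called clusters with Paraclu on the 3 libraries pooled. The labels give 3 livers, and the methods describe the mice per culture differently. The deposited value is an unnormalised whole-number count for each cluster, read here as pooled cDNA starts. rRNA had been removed. Depth per library was not analysed here.

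Clusters were annotated by midpoint with GENCODE M21 with coding sequence first, then UTRs (3′ before 5′), then non-coding exons and last introns, to which exons of retained-intron transcripts were added. Cassette exons were internal exons of coding or NMD transcripts skipped by at least 1 spanning transcript, constitutive exons those kept by every one of several. Transcripts gave sequence. Python 3.11.15, numpy 2.4.6, scipy 1.17.1 and matplotlib 3.10.9 were used, and the geometry was tested on simulated data. For each gene the 3 highest clusters, all within 500 nt of cassette exons, and the exon nearest to the highest cluster were described. Of each comparison list the 3 genes with the highest sums and those with none were named. Genes and lists were chosen with earlier results of these data known. Alternatives changed the minimum count, assignment, merging, flanks, annotation, window and motif.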

Additional observations from a re-analysis of the deposited data

Results flagged for a closer look

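Clusters on the strand opposite to the 9 genes belong to no comparison above, and 4 genes had some. Opposite Celf2 lay 2 clusters with a summed count of 61 (47 and 14), opposite Mbnl2 1 with a count of 19 and opposite Mbnl1 1 with a count of 13, at positions where no gene is annotated on that strand. Opposite Esrp2 lay 2 clusters with a summed count of 42 (28 and 14), both inside the annotated gene 1810019D21Rik.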

How the results depend on the processing

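Of 48 values recomputed under 17 settings for 9 results, 35 moved by less than the limits set for them (1.5 times for counts, the 95% interval for shares) and 13 moved by more. Most of these came from the minimum count. With clusters at or above the median of 17, the number of clusters was 115, and 5 of the 9 genes kept their place in the order by density. With clusters in the top 10% of counts, the number was 26 and the summed count 1902, the intronic share was 50%, the share beyond 5 kb 0%, the share of cassette exons with a downstream cluster 22.2%, the share of windows with GCATG 50%, and 2 genes kept their place. The intronic share was 63.8% with exons of retained-intron transcripts as exon, and the deep share 46.3% from 2 kb. The GCATG share was 19.0% with windows extended by 20 nt. The comparison shares of 20.1% and 11.4% given above were for windows extended by 50 nt, so they cannot be set against this value. CATGC, the reverse complement, which overlaps GCATG in GCATGC, was found in 13.8%. Settings chosen after seeing the data counted overlapping forms of an exon as 1 or left out a gene. Without Mbnl1 the shares were 69.8% intronic, 31.1% deep and 23.1% with GCATG, and without Celf2 70.7%, 31.2% and 29.8%.

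Leaving out each replicate was not possible because the libraries were pooled before clusters were called. No paired analysis was possible because the single group has only a pooled column. Depth per library is unknown, clusters under a count of 10 are not listed, transcript abundance was not measured, and most intronic windows had no sequence.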
